A study of Mus musculus with 12 samples.

Results

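Klhl30, Klhl31, Klhl40, Klhl41, Trim63, Trim54, Trim55 and Fbxo32, 8 genes for muscle kelch proteins and ubiquitin ligases, were followed over all groups of an expression study of myoblast differentiation. They were taken by gene symbol from the probe annotation, and the symbols were chosen on their differences between these same groups, so their changes are a description and carry no test. Of the 8 genes, 7 had a probe and all 7 were among the 10653 genes tested. No probe was annotated to Trim55 in the table used here. The 7 genes had 10 of the 45281 probes, with 3 for Fbxo32, 2 for Klhl31 and 1 for each of the others.

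The study profiled C2C12, a mouse myoblast line kept as undifferentiated cells in serum-rich medium, which fuses into myotubes when serum is withdrawn. Illumina bead arrays were used for 12 RNA samples, which form 4 groups of 3. The antimiR-206 group was cultured for 48 h with an inhibitor of the muscle microRNA miR-206, and the mimic group for 24 h with a small RNA that mimics it. The Day2 and Day1 groups had spent 48 h and 24 h in differentiation medium with horse serum. A lipid transfection protocol stands on the labels of all samples, a control oligonucleotide is not named, and the medium of the treated cells is not given. An effect of transfection itself, or of a different medium, therefore cannot be told apart from that of either small RNA. The labels number the replicates without saying that they were separate cultures, so SDs, SEs and p-values cover only how much these samples vary, and that variation may be technical.

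Kelch-like proteins of this family pair a BTB domain, which binds the scaffold CUL3 of a cullin-RING ubiquitin ligase, with kelch repeats that hold a substrate or partner. KLHL40 and KLHL41 sit on the sarcomere's thin filament, where KLHL40 stabilises nebulin and leiomodin-3, and mutations in either gene cause nemaline myopathy in people. KLHL31 is a muscle kelch protein that in mice controls the level of filamin-C. The MuRF proteins are RING-finger ubiquitin ligases of the tripartite-motif family that bind titin, the Z-disc and microtubules: Trim63 encodes MuRF1, Trim54 MuRF3 and Trim55 MuRF2. Fbxo32 encodes atrogin-1, the F-box subunit of an SCF ubiquitin ligase. Trim63 and Fbxo32 are the usual markers of muscle atrophy and are switched on by FoxO factors when muscle wastes.

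The microRNA that the study raised or inhibited is shown first, since it defines both treatments. Its mature sequence in RefSeq (GRCm38.p6) has its seed, bases 2 to 8, in capitals; the sequence of the mimic itself is not in the labels.
mmu-miR-206-3p: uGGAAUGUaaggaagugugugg

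The 250 bases before the start of 5 of the 8 genes (Klhl31, Klhl40, Klhl41, Trim63 and Trim54) were in the RefSeq promoter table of the same build. They were searched on both strands for CAGCTG, the E-box form bound by MyoD and myogenin, for the MEF2 motif and for TGTTTAC, a FoxO motif. CAGCTG stood in 4 of the 5 windows (all but Klhl31), against 13% of 32851 promoter windows of the same length. The wider E-box form CANNTG, which includes CAGCTG, was found in the same 4 windows and in 66.2% of all windows. The MEF2 motif was found only in the Klhl41 window (2.92% of all windows), and TGTTTAC only in the Trim63 window (3.17%). The Trim54 window, which also holds CAGCTG, and the Klhl31 window, which has none of these matches, are not shown. The Klhl40, Klhl41 and Trim63 windows are shown as examples, with matches to CAGCTG, MEF2 and TGTTTAC in capitals. All 3 lie on the plus strand, at chr9:121777357-121777606, chr2:69669870-69670119 and chr4:134314870-134315119 in that order. A match describes the letters of a window and says nothing about binding in these cells.
Klhl40: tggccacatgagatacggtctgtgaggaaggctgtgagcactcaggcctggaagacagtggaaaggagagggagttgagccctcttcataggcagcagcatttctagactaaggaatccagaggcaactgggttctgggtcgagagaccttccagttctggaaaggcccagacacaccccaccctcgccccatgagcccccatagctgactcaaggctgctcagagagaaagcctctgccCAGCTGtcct
Klhl41: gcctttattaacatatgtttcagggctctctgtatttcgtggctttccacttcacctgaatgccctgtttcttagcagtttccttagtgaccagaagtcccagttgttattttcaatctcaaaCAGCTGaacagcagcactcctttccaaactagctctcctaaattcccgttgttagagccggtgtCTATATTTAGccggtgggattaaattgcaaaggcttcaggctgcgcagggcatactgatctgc
Trim63: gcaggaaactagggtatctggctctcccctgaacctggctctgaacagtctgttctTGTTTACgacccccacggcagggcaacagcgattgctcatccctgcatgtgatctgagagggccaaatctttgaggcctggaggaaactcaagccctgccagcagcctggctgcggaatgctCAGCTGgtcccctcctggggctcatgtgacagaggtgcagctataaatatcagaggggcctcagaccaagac

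Median raw intensity was 49.5 to 63.2 on the 12 arrays, and 36.7% to 40.3% of probes were above background (detection p under 0.05). On the first principal component, with 75.2% of the variance, Day2 arrays scored 74.0 to 80.3 and all others −36.6 to −10.5. Mimic replicate 1 stood with the Day1 arrays: over all tested genes its mean correlation was 0.993 to them and 0.971 to its own group. Counts for the mimic are therefore given below with and without it, and differences without it for Klhl30 and Fbxo32 only. AntimiR-206 replicate 1 was slightly nearer to mimic replicates 2 and 3 (mean correlation 0.9935) than to the rest of its own group (0.9919). On the first component it scored −10.5, those mimic arrays −13.8 and −14.4, and antimiR-206 replicates 2 and 3 −24.4 and −24.5. The markers of myoblasts Myod1, Des and Cdh15 were above background on every array, while Myf5 was not above background on enough arrays to be tested. Of the markers of differentiated muscle, the tested probes of Myog and Ckm were above background on the Day2 arrays only, and that of Acta1 on all 12. Among markers of other cell types, 0 of 4 endothelial genes could be tested, and of the 3 macrophage genes only Csf1r could, at 4.34 to 4.90 on the log2 scale.

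Values below are log2 normalized intensities, given for replicates 1, 2 and 3 of each group. Day2 replicates 2 and 3 are numbered as in the scanner table; the authors' processed table carries these 2 numbers exchanged, since the values under one number rank as those under the other do here (rho 1, and 0.882 where the numbers are the same), and means of Day2 are the same either way. On this scale the dimmest probe that was above background lay at 4.62 to 4.75, depending on the array. Brightness also depends on the probe, so levels are compared between groups and not between genes.

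The 4 kelch genes had their highest values on the 3 Day2 arrays. Klhl41 read 4.84, 4.63 and 5.02 on the antimiR-206 arrays, 4.51, 4.65 and 5.06 on the mimic arrays, 12.63, 12.27 and 12.21 on the Day2 arrays and 4.39, 5.12 and 4.38 on the Day1 arrays. The antimiR-206, mimic and Day1 ranges overlapped, close to background, and only 1 of 3 Day1 arrays measured Klhl41 above background. Klhl40 read 4.72, 4.79 and 4.84 on the antimiR-206 arrays, 4.41, 5.07 and 4.94 on the mimic arrays, 10.63, 10.21 and 10.21 on the Day2 arrays and 4.35, 4.46 and 4.49 on the Day1 arrays. It was above background on all 3 antimiR-206 arrays, 2 mimic arrays, all 3 Day2 arrays and 0 Day1 arrays. The antimiR-206 values of Klhl40 all lay above the Day1 values, and the mimic values overlapped both.

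Klhl30, a muscle kelch gene that was above background on all 12 arrays, was the 1 kelch gene whose 4 groups did not overlap at all. It read 5.47, 5.44 and 5.21 on the antimiR-206 arrays, 6.91, 5.71 and 5.48 on the mimic arrays, 10.45, 10.13 and 10.23 on the Day2 arrays and 5.09, 5.05 and 5.14 on the Day1 arrays. Its order was Day2, mimic, antimiR-206 and Day1, although the lowest mimic value and the highest antimiR-206 value differed by less than the SD of either group. The high mimic value came from replicate 1, the array that otherwise went with Day1. Klhl31 was dim throughout. Its brighter probe read 4.24, 4.28 and 4.27 on the antimiR-206 arrays, 4.23, 4.26 and 4.34 on the mimic arrays, 5.40, 5.22 and 5.54 on the Day2 arrays and 4.25, 4.20 and 4.31 on the Day1 arrays. Only the 3 Day2 arrays measured it above background, so it was tested only because of the group in which it is high. The second Klhl31 probe stayed in the background on all arrays (4.21 to 4.43), so the 2 probes of this gene disagreed.

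The 2 measured MuRF genes also peaked on the Day2 arrays. Trim63 (MuRF1) read 4.68, 4.49 and 4.57 on the antimiR-206 arrays, 4.60, 4.92 and 4.43 on the mimic arrays, 7.30, 6.78 and 6.58 on the Day2 arrays and 4.43, 4.52 and 4.53 on the Day1 arrays. Outside Day2 it was above background on 1 antimiR-206 array, 1 mimic array and 0 Day1 arrays, and these 3 groups overlapped. With 2 such arrays outside Day2 and a filter of at least 3, Trim63 too was tested only because of the group in which it is high. Trim54 (MuRF3) read 6.70, 6.64 and 6.58 on the antimiR-206 arrays, 6.94, 6.77 and 6.48 on the mimic arrays, 9.23, 8.85 and 8.98 on the Day2 arrays and 6.43, 6.62 and 6.72 on the Day1 arrays. Trim54 was thus measured above background on every array, and its antimiR-206, mimic and Day1 values overlapped.

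Fbxo32 (atrogin-1) had another order, with Day1 as the low group. Its brightest probe read 8.76, 8.17 and 8.26 on the antimiR-206 arrays, 7.005, 8.67 and 8.96 on the mimic arrays, 8.31, 8.33 and 8.28 on the Day2 arrays and 6.988, 6.65 and 6.62 on the Day1 arrays. The antimiR-206, mimic and Day2 ranges overlapped one another. Mimic replicate 1 read close to the highest Day1 array, while mimic replicates 2 and 3 lay above the Day2 arrays. The separation of Day2 from Day1 appeared only after normalization: raw intensities of this probe were 180.7, 256.5 and 528.5 on the Day2 arrays and 237.3, 99.7 and 106.4 on the Day1 arrays, which overlap.

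**Figure D1:**
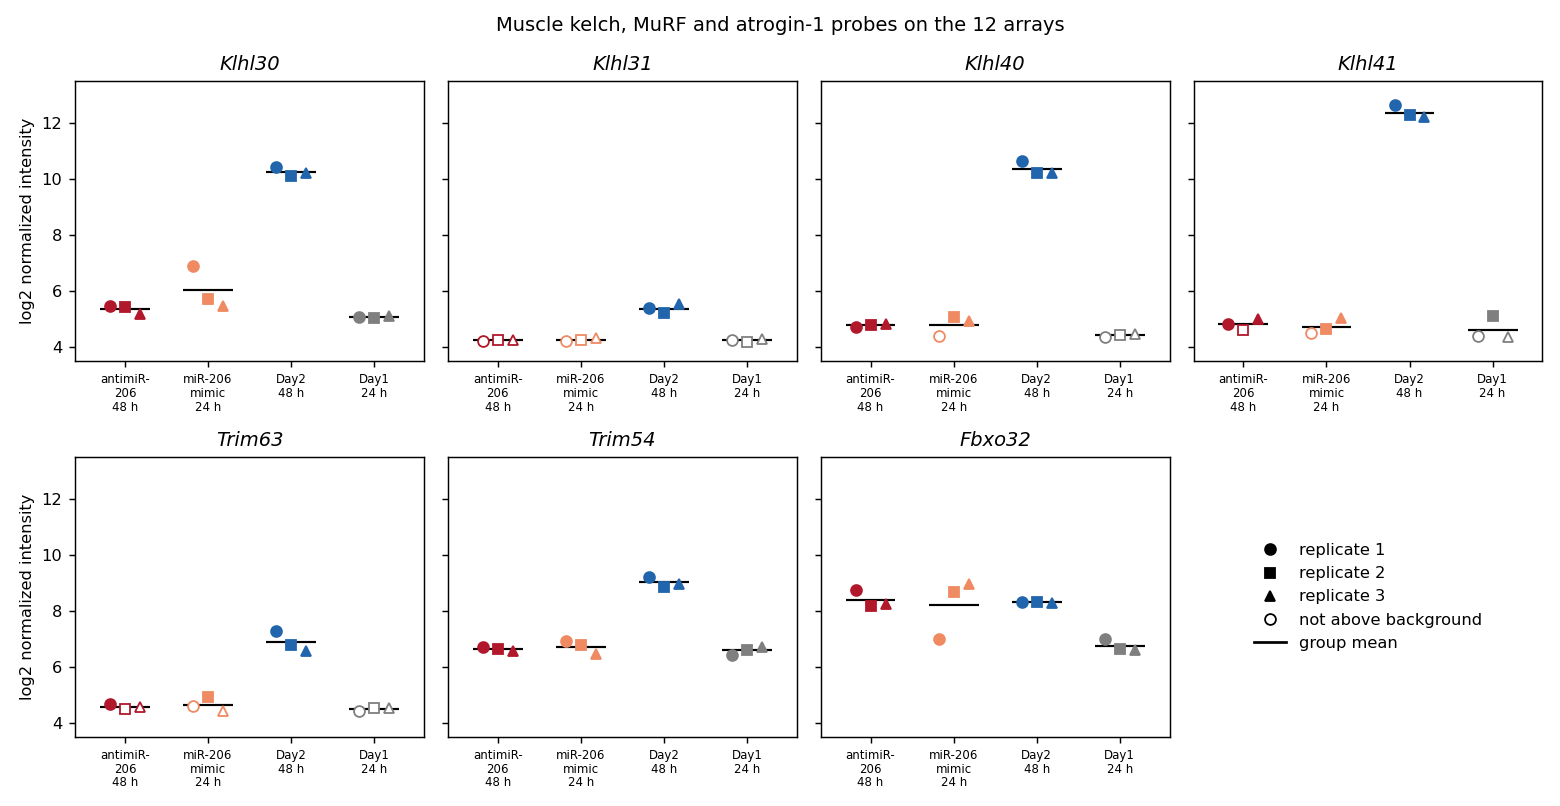
Log2 normalized intensity (vertical axis, shared by all panels) of the brightest kept probe of each gene on the 12 arrays, by group from antimiR-206 through mimic and Day2 to Day1; symbols are replicates, open symbols are arrays where the probe was not above background, and lines are group means. The 6 kelch and MuRF genes stand out on the Day2 arrays only, and Fbxo32 is low on the Day1 arrays and on mimic replicate 1.

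Day2 against Day1 compares 48 h with 24 h of differentiation. All 7 measured genes were higher on Day2, with adjusted p under the threshold of 0.05 and no overlap between the groups. Over all genes 28.2% were higher past that threshold and 32.3% were higher without overlap; since the list was made knowing these results, nothing is read from the 7 of 7. The median log2 difference was 2.43 for the 7 genes and −0.02 for all genes tested. In bulk RNA, more cells of a differentiated type and more RNA per cell cannot be told apart.

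The thin-filament kelch genes changed most. Klhl41 averaged 12.37 ± 0.23 on Day2 and 4.63 ± 0.42 on Day1 (SD, n = 3 each), a log2 difference of 7.74 (limma SE 0.21, 214-fold), with 1 of 3 Day1 arrays measuring it above background. Klhl40 differed by 5.92 (SE 0.17); as it was not above background on Day1, it was at least 50.6-fold higher on Day2. Klhl30 averaged 10.27 ± 0.16 on Day2 and 5.09 ± 0.04 on Day1, which is 36.2-fold higher on Day2 (log2 difference 5.18, SE 0.27). Klhl31 was at least 1.62-fold higher on Day2. An "at least" fold sets each dim value at the lowest signal above background on its array, and holds for this background correction and normalization only.

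The ligase genes differed less. Trim54 averaged 9.02 ± 0.19 on Day2 and 6.59 ± 0.15 on Day1, 5.39-fold higher on Day2 (log2 difference 2.43, SE 0.15). Trim63 was at least 4.59-fold higher on Day2, from a log2 difference of 2.39 (SE 0.18). Fbxo32 averaged 8.30 ± 0.02 on Day2 and 6.75 ± 0.20 on Day1, 2.93-fold higher on Day2 (log2 difference 1.55, SE 0.37). In the authors' processed values the Day2 minus Day1 differences were smaller, at 5.71 for Klhl41, 3.77 for Klhl40, 3.49 for Klhl30, 1.73 for Trim54, 1.05 for Fbxo32, 0.97 for Trim63 and 0.42 for Klhl31. When each array was scaled to its median instead of quantile-normalized, Fbxo32 no longer passed the threshold and the other 6 did.

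The antimiR-206 group against Day2 compares cells of the same culture time with and without the inhibitor. The medium of the antimiR-206 cells is not given, so a difference in medium cannot be told apart from the inhibitor. The 6 kelch and MuRF genes were lower with antimiR-206, past the threshold and without overlap. Over all genes 24.9% were lower past the threshold and 29.5% were lower without overlap. Since the list was made knowing these results, nothing is read from these counts or from the medians that follow. The median log2 difference was −2.38 for the 7 genes and 0.03 for all genes. Day2 enters both this comparison and the one with Day1, so the 2 sets of differences share the Day2 arrays.

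Klhl41 averaged 4.83 ± 0.20 with antimiR-206 and 12.37 ± 0.23 on Day2, 187-fold lower with antimiR-206 (log2 difference −7.54, SE 0.21). Klhl40 was 47.5-fold lower (log2 difference −5.57, SE 0.17) and Klhl30 was 29.9-fold lower (log2 difference −4.90, SE 0.27) in the antimiR-206 group. Klhl31, not above background with antimiR-206, was at least 1.67-fold lower. Trim54 was 5.20-fold lower (log2 difference −2.38, SE 0.15) and Trim63 4.94-fold lower (log2 difference −2.31, SE 0.18), and Trim63 was above background on 1 of 3 antimiR-206 arrays. In the authors' processed values these differences were smaller, at −5.64 for Klhl41, −3.65 for Klhl40, −3.40 for Klhl30, −1.70 for Trim54, −0.94 for Trim63 and −0.41 for Klhl31.

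Fbxo32 did not share that difference. It averaged 8.40 ± 0.32 with antimiR-206 and 8.30 ± 0.02 on Day2, a log2 difference of 0.09 (SE 0.37) that is within the spread of the antimiR-206 arrays.

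The antimiR-206 group was also set beside Day1, although time and treatment both differ there. Of the 7 genes, 1 passed the threshold, Fbxo32, which was higher with antimiR-206, as were 12.9% of all genes. Fbxo32 averaged 8.40 ± 0.32 with antimiR-206 and 6.75 ± 0.20 on Day1, 3.12-fold higher with antimiR-206 (log2 difference 1.64, SE 0.37). Without antimiR-206 replicate 1 the difference was 1.46 and no longer passed. For the other 6 genes the log2 differences were 0.28 for Klhl30, 0.01 for Klhl31, 0.35 for Klhl40, 0.20 for Klhl41, 0.08 for Trim63 and 0.05 for Trim54. Klhl30, Klhl40 and Fbxo32 did not overlap between the groups, as 25.1% of all genes did in that direction. With only the antimiR-206 and Day1 arrays in the fit, Klhl40 passed too, which made 2 of 7. In that fit 3793 of all genes passed, 2006 of them higher, against 2413 and 1371 with all arrays. Nothing is read from these member counts, as the list was made knowing the results.

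The mimic group against Day1 compares cells at 24 h with and without added miR-206. The medium of the mimic cells is not given either, so a difference in medium cannot be told apart from the mimic. Past the threshold, 2 of the 7 genes were higher with the mimic, Klhl30 and Fbxo32, against 4.38% of all genes. The same 2 did not overlap between the groups, against 11.5% of all genes in that direction. Here too the list was made knowing the results, so nothing is read from these counts. Klhl30 averaged 6.03 ± 0.76 with the mimic and 5.09 ± 0.04 on Day1, 1.92-fold higher with the mimic (log2 difference 0.94, SE 0.27). Fbxo32 averaged 8.21 ± 1.06 with the mimic and 6.75 ± 0.20 on Day1, 2.75-fold higher with the mimic (log2 difference 1.46, SE 0.37).

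Both calls depended on the setting: of 19 alternatives, Klhl30 passed in 1 and Fbxo32 in 5. Neither passed with each array scaled to its median, without the detection filter, with only the mimic and Day1 arrays in the fit, as the mean of a gene's probes or with the replicate number as a block. In the authors' processed values the Klhl30 difference was 0.38 and did not pass. Without mimic replicate 1, the Klhl30 difference was 0.51 and the Fbxo32 difference 2.06, and Klhl40 passed as well (3 of 7). In that setting 4017 of all genes passed, 1940 of them higher, against 902 and 467 with all arrays. Without Day2 replicate 1 or antimiR-206 replicate 1, only Fbxo32 passed (1 of 7), and without any 1 of the other arrays (each Day1 array, mimic replicates 2 and 3, Day2 replicates 2 and 3, and antimiR-206 replicates 2 and 3) none of the 7 did. The log2 differences of the other genes were 0.03 for Klhl31, 0.37 for Klhl40, 0.11 for Klhl41, 0.15 for Trim63 and 0.14 for Trim54. The Day1 arrays are shared between this comparison, the one of Day2 and the one of antimiR-206.

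**Figure D2:**
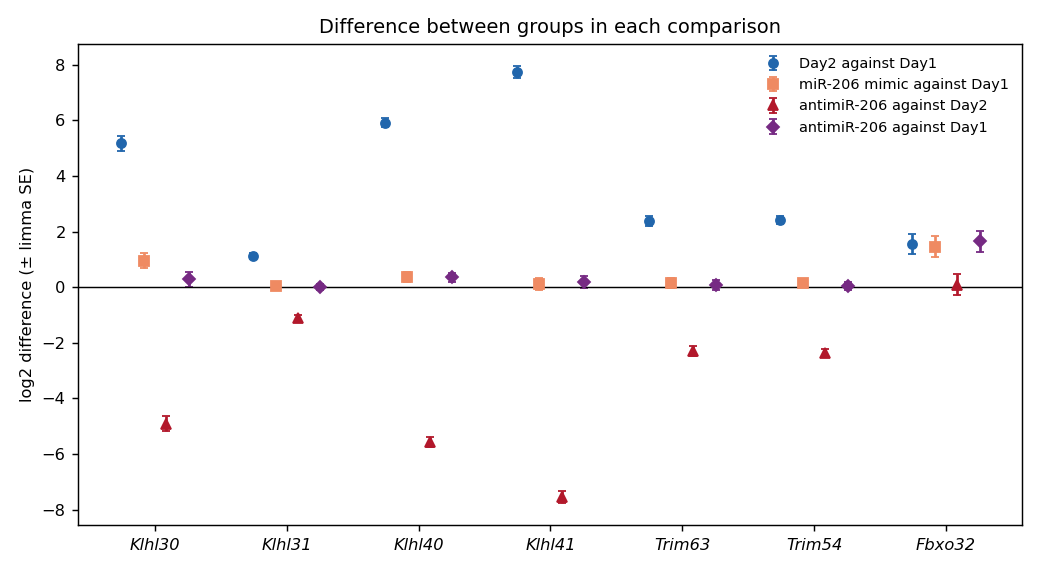
Log2 difference (vertical axis) with its limma SE for each of the 7 measured genes in the 4 comparisons, first-named group minus second. The 6 kelch and MuRF genes show a positive difference of Day2 from Day1 and a negative one of nearly the same size of antimiR-206 from Day2, while Fbxo32 has positive differences of 1.46 to 1.64 from Day1 in all 3 groups.

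All 3 probes of Fbxo32 read higher on average on Day2, with antimiR-206 and with the mimic than on Day1, and they differed in sign for antimiR-206 against Day2. The second probe differed by 1.13 for Day2 against Day1, 1.12 for the mimic against Day1, 0.36 for antimiR-206 against Day2 and 1.497 for antimiR-206 against Day1. For the dimmest probe these log2 differences were 1.502, 1.502, −0.10 and 1.41 in the same order. Over the 12 arrays, Pearson's r between the probes was 0.966, 0.961 and 0.923; the probes share the arrays and the transcript, so this describes how well they match. On both dimmer probes mimic replicate 1 lay within the Day1 values, so the mimic and Day1 groups overlapped there.

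**Figure D3:**
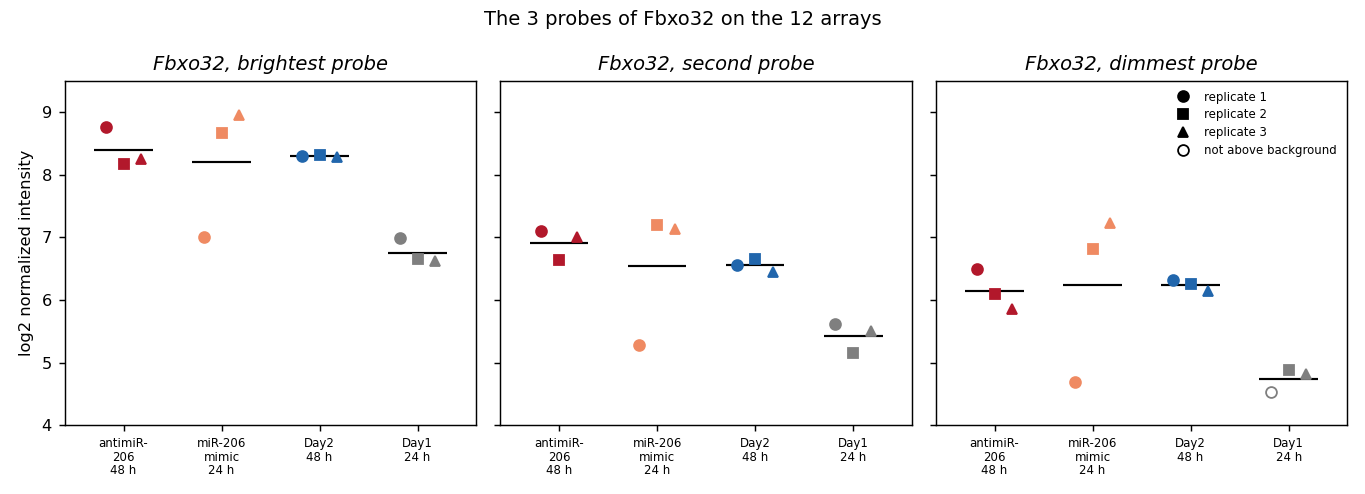
Log2 normalized intensity (vertical axis) of the brightest, second and dimmest probe of Fbxo32 on the 12 arrays, by group from antimiR-206 to Day1; symbols are replicates, open symbols are arrays where the probe was not above background, and lines are group means. In each panel the 3 Day1 arrays and mimic replicate 1 are low and the other 8 arrays are high.

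Across the 12 arrays the 6 kelch and MuRF genes ran together, with r between 0.962 and 0.996 in their 15 pairs. The 3 Day2 arrays set these values: over the other 9 arrays, r ranged from −0.34 to 0.76. Fbxo32 had r of 0.25 to 0.35 with the 6 genes over 12 arrays, and −0.16 to 0.89 over the 9. All these points share their arrays and, within a group, the treatment.

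Among the other tested genes, those nearest to Klhl41 in their values over the 12 arrays were Myom1, a protein of the sarcomere's M-band (r = 0.999), Frmpd1 (0.998) and Csrp3, the muscle LIM protein of the Z-disc (0.998). Klhl40 was nearest to Mymk, the myoblast fusion protein myomaker (r = 0.999), Mb, which encodes myoglobin (0.998), and the growth factor gene Igf2 (0.998). For Klhl30 the nearest genes were Aif1l (0.995), the Rab GTPase-activating protein gene Tbc1d1 (0.991) and the actin-binding protein gene Flii (0.990), and for Klhl31 they were Synpo2l, Art3 and R3hdml (0.994, 0.993 and 0.993). Trim54 was nearest to the LIM-domain gene Fhl1 (0.998), Baiap2l1 (0.996) and Entpd4 (0.994), and Trim63 to Acacb, a muscle acetyl-CoA carboxylase, Mfng and Cldn2 (0.994 each). Nearest to Fbxo32 were Larp6, an RNA-binding protein gene (0.995), Acadm, an enzyme of fatty acid oxidation (0.989), and C1qtnf1 (0.986). For Fbxo32, 242 genes had r above 0.9, against 991 to 1172 for each of the other 6. The nearest genes were not sought without the Day2 arrays, so no r here is read as particular to a pair.

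The described genes were then set among their families, without them. Since the described genes were chosen on differences between these groups, their places in the families are a description only. Of 24 other BTB-kelch genes tested, 5 rose and 4 fell on Day2 against Day1, with a median log2 change of −0.02 and a range of −0.68 to 2.64. Klhl24 rose most, averaging 9.30 ± 0.23 on Day2 and 6.66 ± 0.34 on Day1 (log2 change 2.64, limma adjusted p = 3.22e-05, or 1.02 as the mean of its probes). Ivns1abp rose by 1.36 (adjusted p = 2.34e-06; 0.60 as the mean of its probes) and Klhl8 by 1.02 (adjusted p = 2.37e-05; 0.47 in the authors' values). Klhl30, Klhl40 and Klhl41 lay above the highest of these 24 genes, and Klhl31 lay within their range. With antimiR-206 against Day2, 3 of the 24 rose and 6 fell, Ivns1abp by 1.58 (adjusted p = 6.64e-07; −0.89 as the mean of its probes). With each array scaled to its median, Ivns1abp and Klhl8 no longer passed. Klhl24 averaged 8.35 ± 0.32 with antimiR-206 and rose against Day1 (log2 change 1.69, adjusted p = 0.00917; adjusted p = 0.0509 without antimiR-206 replicate 1; 0.87 as the mean of its probes).

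Of 31 other tripartite-motif genes, 8 rose and 10 fell on Day2 against Day1 (median 0.05). Trim72, which encodes the muscle membrane-repair protein MG53, was at least 84.9-fold higher on Day2 (adjusted p = 4.01e-11) and at least 87.5-fold lower with antimiR-206 than on Day2 (adjusted p = 4.93e-11), further apart than Trim63 and Trim54 in both comparisons. In the authors' values the log2 differences of Trim72 were 4.51 and −4.48. Trim25, a ligase of antiviral RNA sensing, rose by 2.79 on Day2 (adjusted p = 4.03e-10), and Trim21, an intracellular antibody receptor, by 2.02 (adjusted p = 5.06e-08; 0.86 in the authors' values and 0.70 as the mean of its probes). Trim59 fell by 1.88 (adjusted p = 4.7e-07; −0.85 in the authors' values).

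Of 42 other F-box genes, 19 rose and 5 fell on Day2 against Day1 (median 0.29, range −0.99 to 1.81). Fbxo2 rose by 1.81 (adjusted p = 0.000154; 0.80 in the authors' values) and Fbxo10 by 1.53 (adjusted p = 2.18e-06; not past the threshold with each array scaled to its median). Fbxo32 therefore lay within the range of its family on Day2. With antimiR-206 against Day1, 7 of the 42 rose and 0 fell at limma adjusted p under 0.05, led by Fbxo2 (0.99, adjusted p = 0.0323) and Fbxo36 (0.99, adjusted p = 0.0208). In the authors' values these were 0.38 for Fbxo2, which no longer passed, and 0.47 for Fbxo36, and neither gene passed with each array scaled to its median. Fbxo32, at 1.64, lay above the highest of these 42 genes, but it was chosen on differences between these groups. The count was 1 without Day1 replicate 2, Day1 replicate 3 or antimiR-206 replicate 1, and 15 (14 higher and 1 lower) without mimic replicate 1. At an unadjusted p under 0.05, 16 of the 42 were higher and 1 lower.

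**Figure D4:**
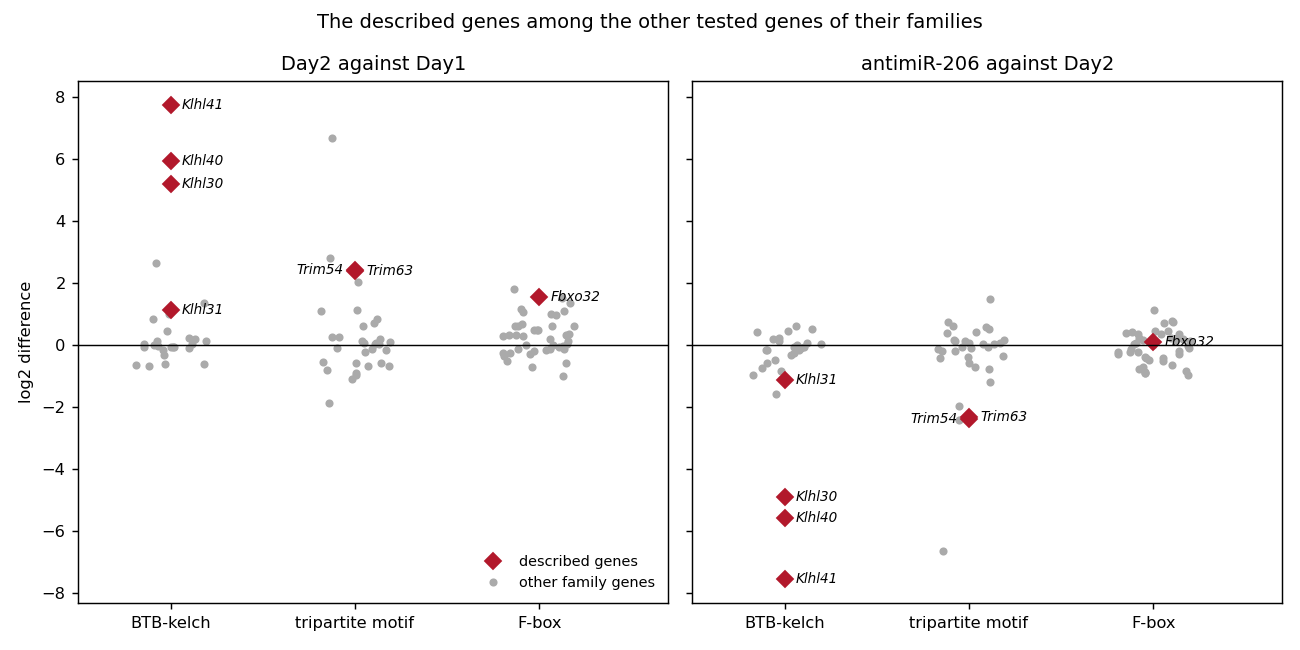
Log2 difference (vertical axis) of the described genes (diamonds) and of the other tested BTB-kelch, tripartite-motif and F-box genes (grey points), for Day2 against Day1 and for antimiR-206 against Day2. Klhl30, Klhl40 and Klhl41 lie outside the range of the other BTB-kelch genes in both panels, and the described genes were chosen on such differences. The 1 tripartite-motif gene far beyond Trim63 and Trim54 is Trim72.

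The shared machinery of cullin-RING ligases changed in both directions. Of 19 core genes, 4 rose and 4 fell on Day2 against Day1, and 4 rose and 4 fell with antimiR-206 against Day2. The scaffold gene Cul4a rose by 1.26 on Day2 (adjusted p = 3.6e-07; 0.46 as the mean of its probes) and its relative Cul4b fell by 0.51 (adjusted p = 0.00339; −0.34 in the authors' values). Neither passed with each array scaled to its median. The count on Day2 was 5 without Day1 replicate 1 or Day2 replicate 1, and that with antimiR-206 against Day2 was 5 without Day2 replicate 1 or antimiR-206 replicate 1. With the mimic, 0 of the 19 passed limma's threshold in either direction, and 3 had an unadjusted p under 0.05; the lowest p belonged to Eloc, with a log2 difference of 0.37 (adjusted p = 0.0947).

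Of 22 other muscle ubiquitin ligases and their cofactors, 13 rose and 1 fell on Day2 against Day1, and 2 rose and 13 fell with antimiR-206 against Day2. This list shares Trim72 and Trim32 with the tripartite-motif genes, and Fbxo21 and Fbxo30 with the F-box genes. Beside Trim72, Unc45b, a myosin chaperone, was at least 51.1-fold higher on Day2 than on Day1 (adjusted p = 3.85e-12) and Asb2, a SOCS-box ligase subunit that degrades filamins, at least 19.8-fold higher (adjusted p = 7.94e-12). With antimiR-206, Unc45b fell by 5.93 (adjusted p = 5.08e-12) against Day2, and Asb2 was at least 20.4-fold lower (adjusted p = 5.08e-12). In the authors' values, the Day2 minus Day1 and antimiR-206 minus Day2 differences were 3.90 and −3.80 for Unc45b and 2.49 and −2.58 for Asb2. Stub1, which encodes the chaperone-linked ligase CHIP, fell by 0.37 on Day2 against Day1 (adjusted p = 0.00806); it did not pass as the mean of its probes (−0.13) or with each array scaled to its median. With the mimic, 0 of the 22 passed limma's threshold, and 3 had an unadjusted p under 0.05.

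Proteins reported as partners or substrates of the described genes were mostly sarcomeric. Of 16 such genes tested, 13 rose and 1 fell on Day2 against Day1, and 1 rose and 11 fell with antimiR-206 against Day2. Ttn, which encodes titin, the anchor of the MuRF proteins, averaged 11.54 ± 0.02 on Day2 and 4.79 ± 0.19 on Day1 (log2 change 6.75, adjusted p = 3.1e-13; 3.55 as the mean of its probes). Tnni2, fast troponin I, rose by 8.88 (adjusted p = 3.94e-12) and Myl1, a fast myosin light chain, by 7.72 (adjusted p = 5.85e-11). The gene that fell was Sqstm1, which encodes the autophagy receptor p62 (−0.79, adjusted p = 3.55e-06; not past the threshold with each array scaled to its median). With the mimic, 3 of the 16 rose: Ppp3ca, the calcineurin catalytic subunit that atrogin-1 targets (1.02, adjusted p = 0.0438), the autophagy receptor Nbr1 (0.73, adjusted p = 0.0392) and dystroglycan, Dag1 (0.68, adjusted p = 0.0299). That count was 0 without any 1 Day1 array, mimic replicate 2 or 3 or Day2 replicate 2, it was 1 without Day2 replicate 3, antimiR-206 replicate 2 or antimiR-206 replicate 3, and it was 7 without mimic replicate 1.

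The FoxO and atrophy-program genes moved in both directions. Of 24 tested, 10 rose and 4 fell on Day2 against Day1, 6 rose and 9 fell with antimiR-206 against Day2, and 7 rose and 3 fell with antimiR-206 against Day1. On Day2 the stress gene Gadd45a rose by 3.27 (adjusted p = 8.28e-07), the autophagy gene Map1lc3a by 2.98 (adjusted p = 6.83e-06) and the cyclin-kinase inhibitor Cdkn1a by 2.61 (adjusted p = 7.94e-10). With antimiR-206 against Day2, Pdk4, a FoxO target of fuel choice, averaged 9.54 ± 0.06 with antimiR-206 and 8.05 ± 0.18 on Day2 (adjusted p = 0.000471). Gadd45a fell by 3.19 (adjusted p = 1.26e-06) and Cdkn1a by 2.88 (adjusted p = 2.99e-10) with antimiR-206 against Day2. Against Day1, antimiR-206 cells had higher Bcl2l11, the pro-apoptotic FoxO target Bim (1.43, adjusted p = 0.00571; 0.69 as the mean of its probes, and not past the threshold with each array scaled to its median). Trib3, a stress pseudokinase, was lower both with antimiR-206 (−4.13, adjusted p = 0.000561) and with the mimic (−3.39, adjusted p = 0.00367; not past the threshold with only the arrays compared) than on Day1. With the mimic, 1 of the 24 rose (Sesn1, a sestrin, 0.99, adjusted p = 0.0498) and 3 fell. Against Day1, the antimiR-206 count was 5 without Day1 replicate 2, Day1 replicate 3 or antimiR-206 replicate 1 and 17 without mimic replicate 1; the mimic count was 2 without any 1 Day1 array, mimic replicate 2 or 3, Day2 replicate 2 or 3, or antimiR-206 replicate 2 or 3.

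These list counts stand beside 28.2% of all genes that rose and 29% that fell on Day2 against Day1, 26.5% that rose and 24.9% that fell with antimiR-206 against Day2, 12.9% that rose and 9.78% that fell with antimiR-206 against Day1, and 4.38% that rose and 4.08% that fell with the mimic against Day1. They depended on the normalization: with each array scaled to its median, the median of all genes was −0.12 on Day2 against Day1, 0.31 with antimiR-206 against Day2 and 0.18 with antimiR-206 against Day1 (−0.02, 0.03 and 0.01 otherwise), and the Day2 counts were 1 of 24 BTB-kelch, 7 of 31 tripartite-motif, 2 of 42 F-box, 1 of 19 core, 4 of 22 muscle ligase, 11 of 16 partner and 5 of 24 FoxO genes. In the same list order, the antimiR-206 counts against Day2 were then 0, 6, 1, 0, 4, 11 and 7. The mimic counts were 1, 1, 1, 0, 0, 3 and 4 with all arrays, and 3, 11, 15, 5, 5, 7 and 17 without mimic replicate 1. Without that array more of all genes passed as well, 4017 with the mimic (902 with all arrays) and 3752 with antimiR-206 against Day1 (2413 with all arrays).

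Markers of other cell types also moved with the groups, and their part in the results was not tested. Pdgfra, the 1 of 4 fibroblast markers that could be tested, averaged 8.03 ± 0.19 with antimiR-206, 7.26 ± 0.86 with the mimic, 8.39 ± 0.23 on Day2 and 6.29 ± 0.33 on Day1. Its mean, like that of Fbxo32, was lowest on Day1. The mimic values of Pdgfra ran from 6.28 to 7.92, which overlapped Day1 (5.95 to 6.61) and lay below Day2 (8.16 to 8.61). The osteoblast marker Bglap2 rose by 1.90 on Day2 against Day1 (adjusted p = 6.38e-05) and Bglap by 0.64 (limma adjusted p = 0.00299). Alpl did not pass there (0.13, limma adjusted p = 0.488). The summed log2 values of these 3 tested osteoblast markers ran from 15.9 to 17.4 with antimiR-206, 15.4 to 16.6 with the mimic, 18.1 to 19.0 on Day2 and 15.5 to 16.3 on Day1. Pparg, the 1 adipocyte marker tested, fell against Day1 by 0.78 with antimiR-206 (adjusted p = 0.0129), by 0.75 with the mimic (adjusted p = 0.0374) and by 0.51 on Day2 (adjusted p = 0.0294). Of the 3 tested myoblast markers, Des and Cdh15 moved too. Des rose by 2.80 on Day2 against Day1 (adjusted p = 2.61e-08) and fell by 2.17 with antimiR-206 against Day2 (adjusted p = 3.79e-07). Cdh15 rose by 2.73 (adjusted p = 1.86e-08) and fell by 1.85 (adjusted p = 9.56e-07) in the same comparisons. Myod1 passed in neither, with log2 differences of 0.60 (limma adjusted p = 0.103) and 0.08 (limma adjusted p = 0.841). Myog averaged 4.32 ± 0.08 with antimiR-206, 4.28 ± 0.08 with the mimic, 11.42 ± 0.31 on Day2 and 4.24 ± 0.06 on Day1, the same split as for the 6 kelch and MuRF genes.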

How the data were processed

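Per the file headers, the deposited scanner table holds raw probe intensity on a linear scale and a detection score, of which 1 minus the score was taken as detection p. A second deposited table has processed log2 values, for which the submitters' processing notes name lumi. Intensities were corrected by limma's normexp (limma 3.58.1 under R 4.3.3) with an offset of 16, quantile-normalized and taken to log2. Probes above background on at least 3 of 12 arrays were kept (19809 of 45281), and the brightest kept probe stood for its gene (10653 genes). Of the probes, 34885 had 1 gene symbol, 18 several and 10378 none. One model with 4 group means was fitted, with Benjamini-Hochberg adjustment over all genes. The number of arrays limits the precision.

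The members and lists were chosen with earlier results of these data known; no p is given for a member. Named list genes are the 3 largest changes per direction past the threshold or, with none, the lowest p, shown in part; for each member the 3 genes of nearest pattern are named. The fit was tested on simulated data for Day2 against Day1. Of 10653 genes, 100 were changed by 1 on the log2 scale and 100 by 2. Of these, 85% and 100% were called, with 8 calls among unchanged genes. The simulated noise was independent between genes, no array stood apart, and far fewer genes changed than the 6088 that passed in the data. The simulation therefore does not give the share of false calls in the data. No pairing of the samples by replicate number was seen, in a check that cannot exclude it.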

Additional observations from a re-analysis of the deposited data

How the results depend on the processing

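Every alternative kept the direction of each named list gene that had passed, but not each call. With median scaling 15 of 37 named genes still passed on Day2 against Day1, 15 of 38 with antimiR-206 against Day2, 2 of 24 with antimiR-206 against Day1 and 1 of 10 with the mimic, of which 0 passed with only the arrays compared. Of 532 alternative values of the members' differences, 491 moved by less than the spread between replicates and 41 by more. With each array scaled to its median, 1879 genes passed on Day2 against Day1 (6088 otherwise), 25 with the mimic (902), 1793 with antimiR-206 against Day2 (5466; 1161 higher and 632 lower) and 201 with antimiR-206 against Day1 (2413; 158 higher and 43 lower). For the mimic, 183 genes passed without the detection filter and 3 with only the arrays compared; with antimiR-206 against Day1, 3793 passed with only the arrays compared. Of the 7 members with the mimic, 1 passed without background correction or in the authors' values, and 0 with median scaling, no detection filter, only the arrays compared or the mean of a gene's probes. With antimiR-206 against Day1, 2 members passed with only the arrays compared. When single arrays were left out, 5506 to 6680 genes passed on Day2 against Day1, 28 to 4017 with the mimic, 4603 to 6162 with antimiR-206 against Day2 and 647 to 3752 with antimiR-206 against Day1. The members passing were then 7 in every case, 0 to 3, 6 in every case and 0 to 1.

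The replicate number as a block gave 5868 genes on Day2 against Day1, 53 with the mimic, 5148 with antimiR-206 against Day2 and 1773 with antimiR-206 against Day1, and 7, 0, 6 and 1 members. Block and check use the scanner table's numbers, of which Day2 2 and 3 are exchanged in the processed table. Deviations of same-numbered arrays correlated over 0.1 in 3 of 18 pairs (r from −0.55 to 0.17) and those of differently numbered arrays in 12 of 36. With these 2 numbers exchanged, it was 4 of 18 and 11 of 36, in a count chosen after seeing the data. No pairing by number was seen. The check cannot exclude it, since groups have 3 arrays and the strongest correlations involve mimic replicate 1 or antimiR-206 replicate 1 (−0.55 between these 2). Dim probes limit the folds of Klhl31, Klhl40, Klhl41 and Trim63, whose low groups lie near background.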
